A study of Mus musculus with 6 samples.

Results

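The cadherins and protocadherins are cell-surface proteins through which cells recognise and hold each other, and their transcripts were followed in fluorescent cells sorted from the mouse embryonic hindbrain. Members were the genes whose only symbol in the platform's probe table is Cdh followed by a number, without Cdh5, or starts with Pcdh. This gave 55 genes of 18193, namely 20 cadherins and 35 protocadherins. Where a gene has several probe sets, the one with the highest 6-array mean stands for it. Clustered protocadherins that share a probe set with other genes were left out by this rule, which set aside 6 probe sets.

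The cells came from hindbrains of mouse embryos at E10.5, pooled by whole litter, and were sorted for tauGFP, in which tau carries green fluorescent protein onto microtubules. In both groups tauGFP was translated from an internal ribosome entry site in the transcript of the Hoxb1 locus, so that the sort selected for cells with this locus active. The purity of the sorted cells was not tested. The control group (Hoxb1-IRES-tauGFP, n = 3 arrays) made normal Hox-B1 protein. The swap group, also of 3 arrays, carried the same tag, but its Hoxb1 locus coded for another Hox protein. The labels name the tissue as rhombomere 4, the source of the facial branchiomotor neurons, which migrate and gather into a nucleus. The comparison asks which transcripts differ between the genotypes, and each array stands for a separate biological replicate according to the series' design text.

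Classical cadherins bind the same or a related cadherin on the next cell through their outermost domain, and their cytoplasmic tail holds beta-catenin and p120-catenin, which tie them to actin. Type I and type II classical cadherins differ in that binding interface. In the developing brainstem, type II cadherins are known for sorting motor neurons into separate nuclei. Delta protocadherins are single genes with weaker adhesion and a tail that recruits actin regulators. The clustered protocadherins lie side by side in one stretch of the genome, and each neuron uses a few of them as an identity code.

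Values are log2 of the deposited intensities, whose array medians lay between 118 and 139. A mean log2 level of 6.83, the median over all 45037 probe sets, serves as a guide to precision. Probe sets bind with different strength, so the levels of different genes were not ranked against each other. No detection calls were used, so a low value cannot be read as absence. Of 5 facial motor neuron markers measured, Isl1, Tbx20 and Ebf1 stood between 13.27 and 14.04 in all 6 arrays and Phox2a between 8.52 and 9.74. Chat, which makes the motor neurons' transmitter, lay below the median level, between 2.72 and 6.16. The 6 neural progenitor markers Sox2, Nes, Hes5, Vim, Pax6 and Sox1 all lay at or above the median level, with 6-array means between 9.68 and 14.21. In a bulk sample, fewer cells of a type and less RNA per cell cannot be told apart.

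No cadherin or protocadherin passed the test between the genotypes. limma called 0 of the 55 members and 0 of 45037 probe sets (0% of the array) at an adjusted p under 0.05, while 2060 probe sets had an unadjusted p under 0.05, and its adjusted p was 1.00 for every member. Unadjusted, 1 member had a p under 0.05, against 3.63% of all genes. The members split evenly, 28 being higher with the swap and 27 lower, and their median log2 difference was 0.01, beside 0.01 over all genes. For 6 members all swap arrays lay on one side of all control arrays, which is 10.9% of the members, against 8.85% of all genes. Cdh19 and Pcdhb14 were the 2 of these with higher swap arrays. Cdh26, Pcdh7, Pcdh10 and Pcdhgc4 were the 4 with lower swap arrays, against 4.55% of all genes in that direction.

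The precision of the differences depended on the level. Of the members, 23 reached the median level and 32 did not. The 95% interval of the difference stayed within 2-fold for 13 of the first and 2 of the second. The median SE of the log2 difference was 0.27 for the higher members and 0.67 for the lower ones. Over all genes the interval stayed within 2-fold for 43.4%, and over the members for 27.3%, without matching for level. At or above the median level the shares were 68.1% of genes and 56.5% of members. Below it they were 4.28% of genes and 6.25% of members.

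**Figure D1:**
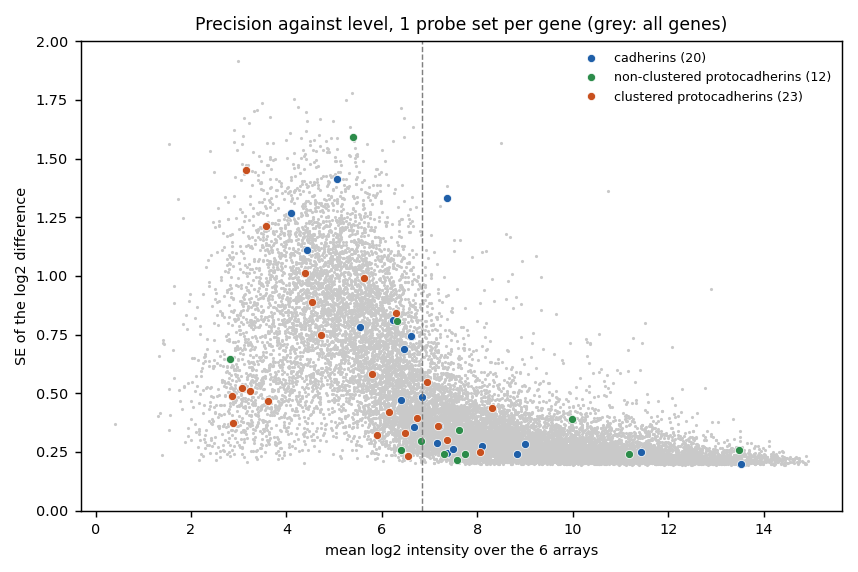
The SE of the log2 difference (vertical axis) is plotted against the mean log2 intensity over the 6 arrays (horizontal axis) for every gene (grey) and for the 20 cadherins, 12 non-clustered and 23 clustered protocadherins (coloured); the dashed line is the median level, 6.83. Most clustered protocadherins lie left of the line, where the SEs of these clustered genes reach 1.45.

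**Figure D2:**
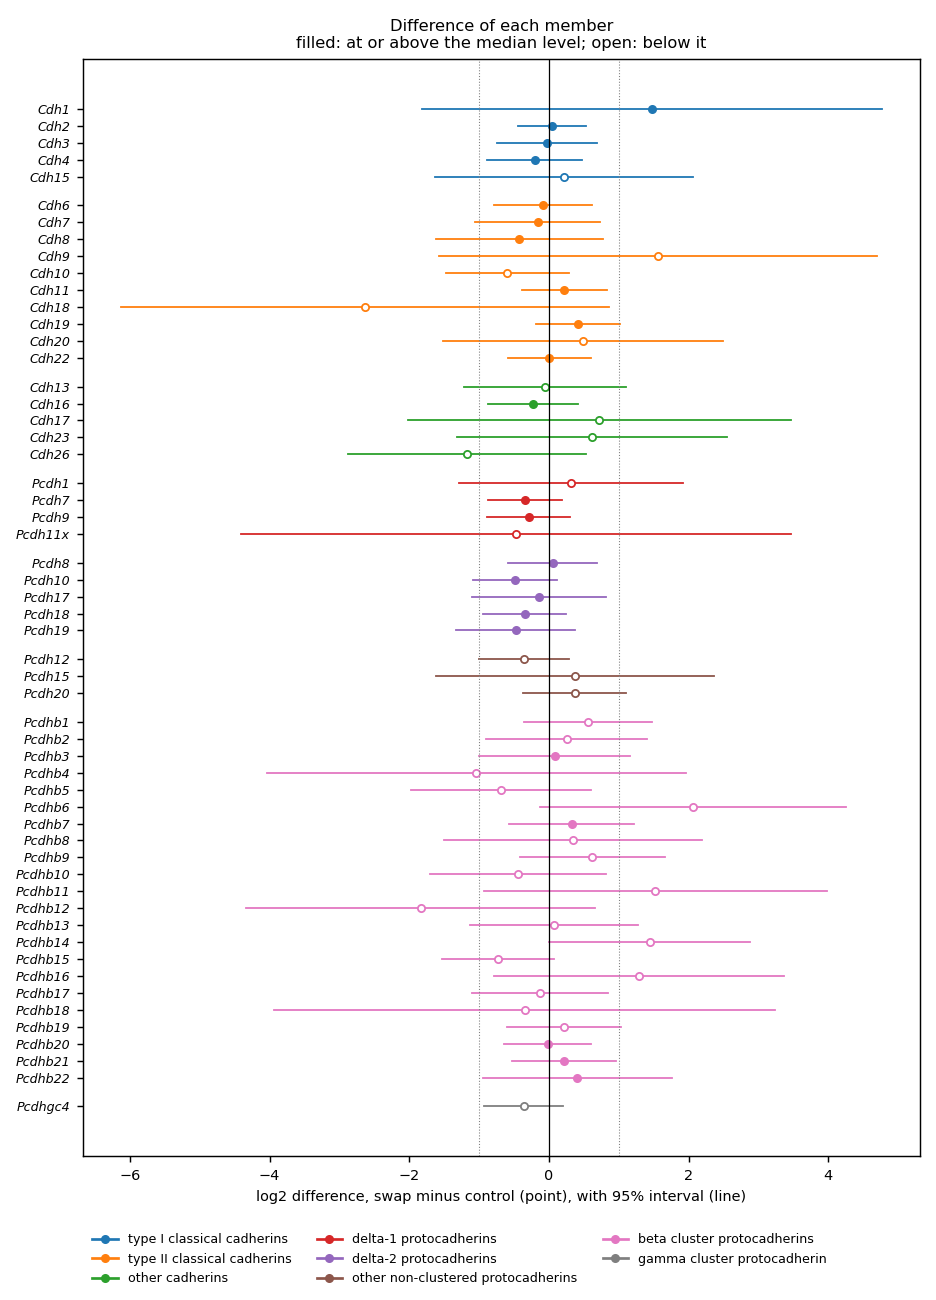
Points give the log2 difference (swap minus control) of each of the 55 members and lines its 95% interval, coloured by subfamily, with dotted lines at a 2-fold difference. The intervals of all members but Pcdhb14, whose interval begins at 0.0018, include 0, and they widen for members below the median level (open points).

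Because the genotypes differ in a Hox protein, the promoters of the members were read for the letters TGATNNAT, the consensus that Hox proteins bind together with their partner Pbx. RefSeq promoter windows of 300 bases (GRCm38.p6) were matched by symbol for 20 of the 55 members, in 23 windows. These 20 included no clustered protocadherin and none of Cdh1, Cdh2, Cdh3, Cdh4, Cdh11 and Cdh19, so the shares below do not describe the whole family. The median share of G and C bases was 60.3% in the 23 windows and 52.7% in all 32851 windows of the table. On either strand 2 of the 23 windows held the letters, or 8.70%, against 8.85% of all windows, without matching for base content. These were the windows of Cdh9 and Cdh23. They are printed 5′ to 3′ on the gene's strand with the match in capitals, on the reverse strand in both, together with the Pcdh10 window, whose gene had lower swap arrays in 2 probe sets and which held no match. A match is a description of letters and not a binding site. The windows lie at chr15:16728665-16728964 (plus strand) for Cdh9, chr10:60696441-60696740 (minus strand) for Cdh23 and chr3:45378148-45378447 (plus strand) for Pcdh10.
Cdh9: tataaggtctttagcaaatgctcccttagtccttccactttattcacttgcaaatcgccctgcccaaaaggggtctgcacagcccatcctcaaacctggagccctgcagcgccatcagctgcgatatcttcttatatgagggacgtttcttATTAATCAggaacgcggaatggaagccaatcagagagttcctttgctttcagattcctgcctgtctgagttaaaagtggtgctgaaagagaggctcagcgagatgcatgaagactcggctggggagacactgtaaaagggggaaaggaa
Cdh23: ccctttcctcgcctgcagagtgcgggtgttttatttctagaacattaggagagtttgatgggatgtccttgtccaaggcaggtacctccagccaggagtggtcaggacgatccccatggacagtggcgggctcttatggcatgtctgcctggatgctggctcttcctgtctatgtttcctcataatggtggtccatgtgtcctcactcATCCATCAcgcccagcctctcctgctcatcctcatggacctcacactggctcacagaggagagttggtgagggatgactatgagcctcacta
Pcdh10: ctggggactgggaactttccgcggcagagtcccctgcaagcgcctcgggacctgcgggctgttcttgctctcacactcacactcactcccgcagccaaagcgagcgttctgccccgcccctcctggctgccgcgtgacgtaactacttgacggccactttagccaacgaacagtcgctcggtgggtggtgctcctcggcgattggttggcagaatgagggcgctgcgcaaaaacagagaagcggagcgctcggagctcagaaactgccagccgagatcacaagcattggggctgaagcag
The match begins at base 152 of the Cdh9 window and at base 209 of the Cdh23 window. Both genes lay below the median level, with differences of 1.56 (SE 1.27) and 0.61 (SE 0.78), and neither passed limma's test.

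Among the type I classical cadherins, N-cadherin gave the most precise value. Cdh2, which encodes N-cadherin, the cadherin of neural progenitors and neurons, had log2 intensities of 13.55, 13.43 and 13.53 in control arrays 1, 2 and 3. In swap arrays 1, 2 and 3 it had 13.59, 13.55 and 13.50. The groups overlapped, and all 6 arrays lay within 0.16 of each other. The difference was 0.05 (SE 0.20, 95% interval -0.44 to 0.54). A lower-reading Cdh2 probe set stood at 9.70, 9.79 and 10.17 in the controls and 10.44, 10.24 and 10.18 in the swap arrays, a difference of 0.40 (SE 0.24).

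Cdh4 encodes R-cadherin, a close relative of N-cadherin that is found in parts of the brain. It stood at 8.20 ± 0.30 in the controls and 7.99 ± 0.26 in the swap arrays (n = 3 each, SD), a difference of -0.20 (SE 0.27). Its arrays read 7.86, 8.30 and 8.44 in the controls, against 8.02, 7.71 and 8.24 with the swap, and overlapped. Cdh3, which encodes P-cadherin of epithelia, stood at 7.46, 6.66 and 7.36 in the controls, against 7.08, 7.24 and 7.09 in the swap arrays. Its difference was -0.02 (SE 0.29), and its sign turned under several alternatives. Cdh15, or M-cadherin, known from muscle, lay below the median level. It read 6.84, 7.36 and 5.28 in the controls, against 5.54, 7.12 and 7.47 with the swap. Its groups overlapped, with a difference of 0.21 (SE 0.75).

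Cdh1 encodes E-cadherin, the cadherin of epithelial cells, and it differed more between control arrays than between genotypes. It stood at 3.61, 8.72 and 7.55 in control arrays 1, 2 and 3, against 7.43, 8.56 and 8.32 in swap arrays 1, 2 and 3. Control array 1 alone was low, while control array 2 was the highest of the 6 and control array 3 lay among the swap arrays. The difference of 1.48 (SE 1.33) became -0.03 without control array 1. The epithelial markers had their lowest sum in the same array, but only 3 of the 6 (Cldn6, Cldn7 and Esrp1) were lowest there, and Epcam, Krt8 and Krt18 were lowest in control array 3. Epcam, Krt8, Krt18, Cldn6, Cldn7 and Esrp1, all 6 at or above the median level, summed to 1109 intensity units in control array 1 and to 1763 and 2525 in the other 2. The swap arrays summed to 1500, 2497 and 2670. The part of these cells in the Cdh1 value was not tested.

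**Figure D3:**
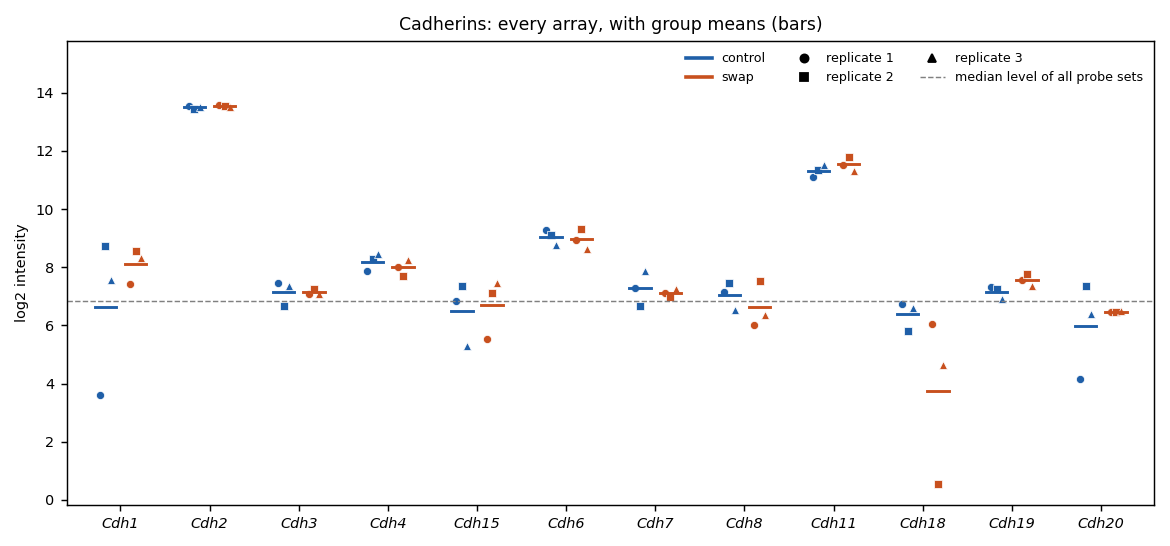
Log2 intensity (vertical axis) of 12 cadherins in each array, with replicates as symbols, genotypes as colours, bars for group means and a dashed line at the median level of all probe sets. Cdh2, Cdh6 and Cdh11 sit close together across arrays, while Cdh1 and Cdh20 are low in control array 1 (3.61 and 4.17) and Cdh18 is low in swap array 2 (0.53).

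The type II classical cadherins, the subfamily tied to motor neuron sorting, had 10 members, of which 5 read higher and 5 lower with the swap, with a median difference of -0.04. Cdh11 is expressed by mesenchyme and by some neurons. It stood at 11.11, 11.34 and 11.52 in the controls and 11.51, 11.80 and 11.32 in the swap arrays. Its groups overlapped, with a difference of 0.22 (SE 0.25, 95% interval -0.39 to 0.83) and 0.06 (SE 0.25) in its other probe set. The mesenchymal marker list (9 genes, 6 at or above the median level) ranged from 2797 to 8354 summed intensity units in the controls and 3370 to 5960 with the swap. Both replicate 1 arrays had the lowest sums, 2797 in the controls and 3370 in the swap group. Cdh11 was lowest in control array 1 as well, but in swap array 1 it stood above swap array 3. The part of mesenchymal cells in the Cdh11 level was not tested.

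Cdh6, a type II cadherin of the early hindbrain and neural crest, stood at 9.27, 9.10 and 8.76 in the controls, against 8.94, 9.31 and 8.63 in the swap arrays. The groups overlapped fully and the difference was -0.08 (SE 0.28). Cdh22, a brain cadherin, stood at 8.83 ± 0.24 in the controls and 8.84 ± 0.16 in the swap arrays (n = 3 each, SD). That difference, 0.01 (95% interval -0.58 to 0.60), stayed within 2-fold.

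Cdh7 and Cdh8, also known from brainstem and neural tube neurons, were measured near the median level and less precisely. Cdh7 stood at 7.29, 6.65 and 7.88 in the controls and 7.10, 6.97 and 7.26 in the swap arrays, a difference of -0.16 (SE 0.36). Cdh8 stood at 7.13, 7.48 and 6.54 against 6.01, 7.52 and 6.34, a difference of -0.43 (SE 0.48). The swap arrays of Cdh8 spanned more than the gap between its group means. Cdh20 stood at 4.17, 7.37 and 6.40 in the controls and 6.45, 6.44 and 6.51 in the swap arrays. Its difference of 0.49 (SE 0.81) became -0.42 without control array 1.

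Cdh19, a cadherin of Schwann cell precursors and other neural crest derivatives, was the cadherin whose swap arrays all lay above the control arrays. It stood at 7.31, 7.25 and 6.89 in control arrays 1, 2 and 3, against 7.57, 7.77 and 7.35 in the swap arrays. The gap between the highest control and the lowest swap array was small beside the spread within each group. The difference of 0.41 (SE 0.25, 95% interval -0.19 to 1.02) did not pass limma's test (adjusted p = 1.00). Of the crest and glial markers Sox10, Foxd3, Erbb3 and Fabp7, all at or above the median level, 1 was higher in the swap arrays. Their sums ranged from 11425 to 12329 in the controls and from 10751 to 12345 in the swap arrays.

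Cdh18, a type II cadherin of neurons, had the largest difference in size among the cadherins, and it rested on few arrays. It stood at 6.73, 5.80 and 6.59 in the controls, against 6.06, 0.53 and 4.63 in the swap arrays. Swap array 1 lay above control array 2, so the groups overlapped. The difference was -2.64 (SE 1.41) and became -1.03 without swap array 2, and the gene's mean level of 5.06 lies below the median. Cdh9 and Cdh10, the remaining type II members and both below the median level, had differences of 1.56 (SE 1.27) and -0.60 (SE 0.36). The Cdh9 difference became 0.77 without control array 1. The 4 probe sets of Cdh10 did not share a direction, at -0.60, 0.45, -1.54 and -1.19.

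The 5 other cadherins have specialised roles or lack the classical tail. Cdh13, or T-cadherin, which is held in the membrane by a lipid anchor, stood at 6.43 ± 0.41 in the controls and 6.37 ± 0.79 in the swap arrays (n = 3 each, SD). Its dimmer probe sets gave 1.37 (SE 0.69), where all swap arrays lay above the controls, 0.33 (SE 0.47) and -0.61 (SE 0.32). Cdh16, a kidney cadherin with a short tail, had a difference of -0.22 (SE 0.26). Cdh17, of the intestine, had 0.72 (SE 1.11), and Cdh23, which forms the tip links of inner ear hair cells, had 0.61 (SE 0.78). Cdh26 stood at 6.96, 7.22 and 6.99 in the controls and 6.61, 6.73 and 4.31 in the swap arrays, which do not overlap. Its difference of -1.17 (SE 0.69) became -0.39 without swap array 3, the lowest array.

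The delta protocadherins had 9 members, of which 2 read higher and 7 lower with the swap. Their median difference was -0.35, beside 0.01 over all genes, and limma called 0 of them. Pcdh8, also known as arcadlin or PAPC, regulates adhesion by other cadherins. Its log2 intensities were 13.78, 13.14 and 13.45 in the control arrays. In the swap arrays they were 13.62, 13.57 and 13.34. The swap arrays fell inside the control range, and the difference was 0.05 (SE 0.26, 95% interval -0.59 to 0.69). A lower-reading Pcdh8 probe set gave 0.17 (SE 0.30). Pcdh17, which recruits actin regulators in axons, stood at 9.54, 10.19 and 10.46 in the controls and 10.41, 9.38 and 9.97 in the swap arrays. Its arrays were mixed between genotypes, with a difference of -0.14 (SE 0.39). In its other probe set all swap arrays (7.86 to 8.60) lay above the controls (7.80 to 7.84), with a difference of 0.34 (SE 0.27).

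Pcdh10, or OL-protocadherin, which binds the actin regulator Nap1, was lower in each swap array than in each control array. It stood at 7.22, 7.68 and 7.70 in control arrays 1, 2 and 3, against 6.93, 7.04 and 7.18 in the swap arrays. Control array 1 and swap array 3 were separated by a narrow margin. The difference was -0.48 (SE 0.24, 95% interval -1.08 to 0.12), and it did not pass limma's test (adjusted p = 1.00). A further Pcdh10 probe set, chosen after its values were seen, stood at 6.63, 6.87 and 6.62 in the controls and 5.80, 5.82 and 6.18 in the swap arrays. Its groups were also apart, with a difference of -0.78 (SE 0.23, unadjusted p = 0.0164 and adjusted p = 1.00 in limma). The 4 remaining Pcdh10 probe sets, all below the median level, gave -1.01, -0.68, 0.11 and 0.65, with SEs of 0.74 to 1.10.

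Pcdh7, a delta-1 protocadherin known from retinal axons, also had lower swap arrays. It stood at 7.58, 7.91 and 7.72 in the controls and 7.35, 7.33 and 7.50 in the swap arrays. The groups did not overlap, and the difference was -0.35 (SE 0.21, 95% interval -0.88 to 0.18). Its other probe sets gave -0.40 (SE 0.53) and -0.01 (SE 0.62). Pcdh18, found in mesenchyme and neural tissue, stood at 11.18, 11.31 and 11.55 in the controls and 10.88, 11.26 and 10.86 in the swap arrays. Swap array 2 lay above control array 1, and the difference was -0.35 (SE 0.24, 95% interval -0.94 to 0.25). Its lower-reading probe sets gave -0.08 (SE 0.32) and -0.88 (SE 0.40).

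Pcdh19, an X-linked protocadherin that can pair with N-cadherin, stood at 7.69, 7.63 and 8.27 in the controls and 7.0, 7.24 and 7.92 in the swap arrays. Swap array 3 lay among the control arrays. The difference was -0.48 (SE 0.34), and its other probe sets went the other way, at 0.61 (SE 0.46) and 1.09 (SE 1.13). Pcdh9 stood at 8.12, 7.61 and 7.94 in the controls and 7.67, 7.69 and 7.44 in the swap arrays, a difference of -0.29 (SE 0.24). Its lower-reading probe sets gave 0.16 (SE 0.46) and -0.45 (SE 0.73). The last 2 delta members lay below the median level. Pcdh1 differed by 0.32 (SE 0.65) and Pcdh11x by -0.47 (SE 1.59), and the latter became -1.99 without control array 1 and 0.59 without control array 2.

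**Figure D4:**
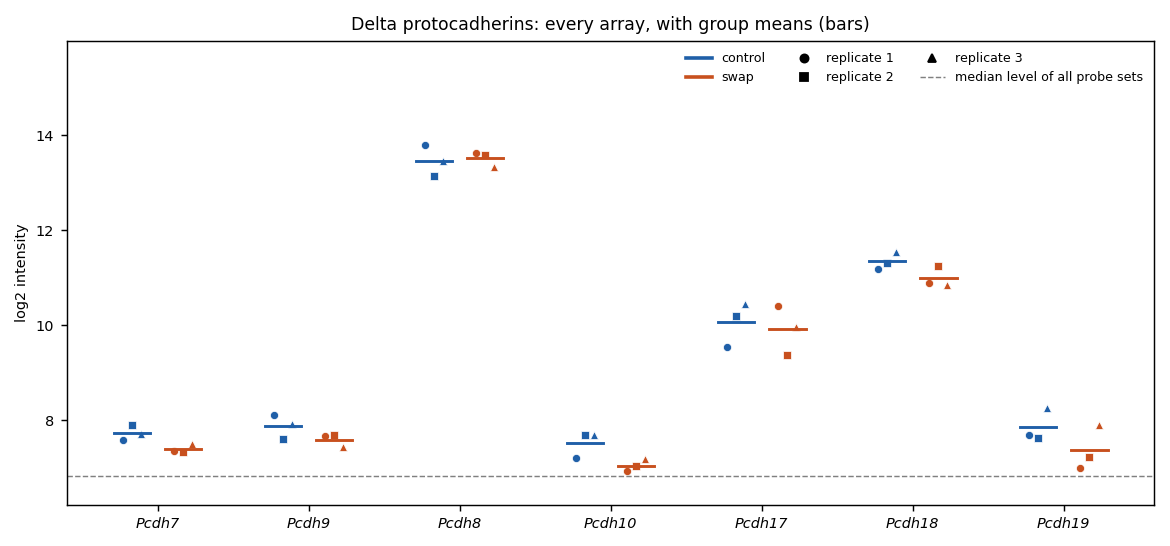
Log2 intensity (vertical axis) of 7 delta protocadherins in each array, with replicates as symbols, genotypes as colours, bars for group means and a dashed line at the median level of all probe sets. The swap arrays of Pcdh7 and Pcdh10 lie below their control arrays, and those of Pcdh8 (13.34 to 13.62) lie within the control range (13.14 to 13.78).

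Of the remaining single protocadherins, Pcdh12 belongs to endothelial cells, Pcdh15 pairs with Cdh23 in hair cell tip links, and Pcdh20 is a neuronal protocadherin. All 3 lay below the median level. Pcdh12 stood at 6.88, 6.50 and 6.37 in the controls and 6.25, 5.98 and 6.46 in the swap arrays, a difference of -0.35 (SE 0.26). The 8 endothelial markers, Cdh5 (VE-cadherin) and Pecam1 among them, all lay below the median level. Their sums were 358 to 529 in the controls and 552 to 644 in the swap arrays. The other Pcdh12 probe sets gave 0.49 (SE 0.62) and -0.49 (SE 0.68). Pcdh20 differed by 0.37 (SE 0.30).

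Pcdh15 showed how much a value can depend on the probe set. Its highest-reading probe set stood at 4.29, 6.68 and 7.40 in the controls and 6.44, 6.53 and 6.53 in the swap arrays. Those groups overlapped, with a difference of 0.38 (SE 0.81), which became -0.54 without control array 1. A second, chosen after its values were seen, stood at 6.34, 5.54 and 6.08 in the controls and 3.23, 2.86 and 3.98 in the swap arrays. Here the groups were far apart, with a difference of -2.63 (SE 0.39), an unadjusted p of 0.000614 and an adjusted p of 0.413 in limma. The third Pcdh15 probe set went the other way, at 2.05 (SE 1.10). Of the 99 probe sets of the members 3 had an unadjusted p under 0.05, against 4.57% of all probe sets, and limma called 0.

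The protocadherin clusters were represented by 22 genes of the beta cluster and by Pcdhgc4 of the gamma cluster. Beta genes have near-identical copies, so their probe sets may bind each other's transcripts, and each value is uncertain as to the gene. Of the 22 beta genes 17 lay below the median level. In the swap arrays 14 were higher and 8 lower, with a median difference of 0.21. Pcdhb14 had the smallest unadjusted p of all members (0.0498, adjusted p = 1.00 in limma). It stood at 3.85, 5.92 and 5.46 in the controls and 6.27, 6.37 and 6.92 in the swap arrays. The groups did not overlap, but the difference of 1.44 (SE 0.58) became 0.83 without control array 1, and its other probe set gave -1.79 (SE 1.24).

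Pcdhb6 stood at 2.50, 5.58 and 2.43 in the controls and 5.61, 5.67 and 5.42 in the swap arrays. Control array 2 reached the swap level, and the difference was 2.06 (SE 0.89), or 3.10 without that array. Pcdhb15 stood at 5.87, 6.50 and 6.42 against 6.0, 5.19 and 5.42. Its difference of -0.73 (SE 0.32) met 1.34 (SE 0.95) in its other probe set. The beta genes with an interval within 2-fold were Pcdhb20 (-0.02, SE 0.25) and Pcdhb21 (0.21, SE 0.30). Pcdhb22 and Pcdhb3, both at or above that level, were lowest in control array 1. Pcdhb22 stood at 5.53 there and between 6.93 and 7.42 in the other 5 arrays, and Pcdhb3 at 7.41 and between 8.20 and 9.01.

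Control array 1 was the array in which beta genes were most often lowest. It was the lowest of the 6 for 9 of 22 beta genes (40.9%), for 29.1% of all members and for 20.7% of all genes. The median deviation from each gene's mean over the 6 arrays was -0.46 there and lay between 0.09 and 0.29 in the other arrays. Without control array 1 the median difference of the beta genes was -0.13 in place of 0.21. Control array 1 also had the lowest sums of the macrophage, endothelial, mesenchymal and epithelial lists, but not of the crest, motor neuron and progenitor lists. The 6 macrophage markers summed to 562 there, against 1414 and 16002 in the other control arrays and 2304 to 4402 in the swap arrays. Among them, Mrc1 was lowest in control array 3 and Aif1 in swap array 1. The part of other cells in the low beta gene values was not tested.

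**Figure D5:**
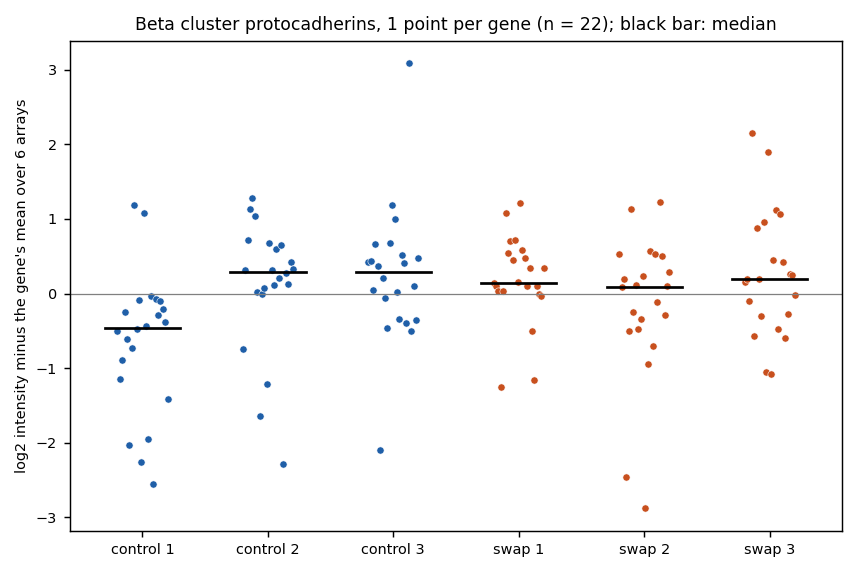
Each point is the log2 intensity of a beta cluster protocadherin in an array minus that gene's mean over the 6 arrays (vertical axis), by array (horizontal axis, n = 22 genes), and black bars are medians. Control array 1 has a median of -0.46, and the other 5 arrays have medians of 0.09 to 0.29.

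The other 14 beta genes below the median level had wide intervals. Pcdhb11 (1.52, SE 0.99) and Pcdhb16 (1.29, SE 0.84) had the largest positive differences, which became 0.77 and 0.34 without control array 1. Pcdhb12 (-1.84, SE 1.01) and Pcdhb4 (-1.04, SE 1.21) had the largest negative ones, which became -0.85 and -0.07 without swap array 2. Pcdhgc4, a gamma protocadherin of the C type, stood at 6.51, 6.67 and 7.01 in the controls and 6.41, 6.32 and 6.35 in the swap arrays. The groups did not overlap, and the difference was -0.36 (SE 0.23, 95% interval -0.93 to 0.21).

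Across the members, probe sets of the same gene often disagreed. Of 26 members with more than 1 probe set, all probe sets shared a direction in 9. These were Cdh2, Cdh11, Cdh23, Pcdh7, Pcdh8, Pcdh11x, Pcdh18, Pcdh20 and Pcdhb4. In the other 17 the directions differed.

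Of the partners of these proteins inside the cell and on its surface, limma called 0, and 0 had an unadjusted p under 0.05. Of 63 listed partners 59 were measured, 32 of them higher and 27 lower in the swap arrays, with a median difference of 0.03. For 71.2% of them the interval stayed within 2-fold. Ctnnb1, or beta-catenin, which binds classical cadherin tails, stood at 14.27 ± 0.10 in the controls and 14.36 ± 0.15 in the swap arrays (n = 3 each, SD). Its difference was 0.09 (95% interval -0.44 to 0.62). Ctnna2, the neuronal alpha-catenin that links to actin, differed by -0.12 (SE 0.28). The p120 family members Ctnnd1 and Ctnnd2, which hold cadherins at the surface, differed by -0.18 (SE 0.23) and 0.06 (SE 0.32).

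Of the partners 4 had groups that did not overlap, which is 6.78%, against 8.85% of all genes. The alpha-catenin gene Ctnna3 had the smallest unadjusted p, at 6.91 ± 0.11 in the controls and 6.50 ± 0.07 in the swap arrays (n = 3 each, SD) and a difference of -0.42 (SE 0.20). The calsyntenins, cadherin-related proteins of synapses, went both ways, with Clstn1 at 0.49 (SE 0.25) and Clstn2 at -0.41 (SE 0.21). Cyfip2, a subunit of the actin-regulating WAVE complex, had a difference of 0.53 (SE 0.27). Ctnnbip1, an inhibitor of beta-catenin, differed by 0.50 (SE 0.25) with overlapping arrays.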

How the data were processed

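The members and gene lists were chosen with earlier results of these data known. Total RNA of sorted cells was amplified, biotin-labelled and read on Affymetrix Mouse Genome arrays, per the labels. The deposited values are linear intensities, 1 per probe set and array, for which the submitters' processing notes name the affy package. Its version, background and summary steps were not given in the sources used here. Every array has a trimmed mean of 500, so intensities had been scaled to a common mean, which removes any overall shift. log2 was taken with no offset, since the lowest deposited intensity was 0.156.

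Gene names came from the platform table (34945 probe sets with 1 symbol, 932 with several and 9160 with none), and 64 array control probe sets were left out. Swap minus control was fitted over 45037 probe sets with limma 3.58.1 in R 4.3.3 (lmFit, eBayes), two-sided, with Benjamini-Hochberg adjustment over all of them at 0.05, and read for the members. Precision is limited by the number of arrays. By rule, values of every array are given for type I cadherins, members known from neural tube work and those with the smallest p (22 members). Those of Cdh26, Pcdh12, Pcdh15 and Pcdhgc4 were added after they were seen. Partners are those with the smallest p and 4 catenin genes, with Cyfip2 added. The Hox protein made in the swap group is not named here. The genes Cdh12 and Cdh24 of the lists were not analysed here. Alternatives were other normalizations and centring, an offset, a level filter, other priors, weighted arrays, other rules for several probe sets of a gene, a replicate block and leaving out arrays.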

Additional observations from a re-analysis of the deposited data

How the results depend on the processing

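limma called 0 members and 0 partners in the 16 alternatives run, as it did over the whole array. Features with an unadjusted p under 0.05 in limma numbered 774 and 801 in the fits with 1 value per gene (18193 genes). They numbered 838 with the level filter (22519 probe sets) and 1624 to 2375 in the other alternatives (45037 probe sets each). The members with such a p numbered 0 to 4. The 4 arose without control replicate 1, without swap replicate 1 and without both, where 2141, 2034 and 2375 probe sets had such a p. The smallest adjusted p of a member was 0.407. The median difference over the members ran from -0.17 to 0.08. Each array's median log2 intensity over the members had an SD of 0.28 within genotypes, a spread of levels and not of differences. Of 346 values of the 22 members chosen by rule, 317 kept their direction and 29 turned, all in differences that had not passed, and the cause was not tested. With the mean of all probe sets of a gene the values turned for Cdh3 (0.25), Cdh4 (0.041), Cdh6 (0.13), Cdh7 (0.040), Pcdh17 (0.10), Pcdh19 (0.41), Pcdhb14 (-0.17) and Pcdhb15 (0.31). Cdh3 also turned with quantile normalization (0.0058), median centring (0.0074), array weights (0.028) and without both replicate 1 arrays (0.16), and the last turned Cdh6 (0.040) and Cdh20 (-0.41) too. With 1 array left out, the ranges of the differences of these members that turned were -0.034 to 2.52 for Cdh1, -0.27 to 0.13 for Cdh3, -0.39 to 0.80 for Cdh15, -0.26 to 0.082 for Cdh6, -0.47 to 0.14 for Cdh7, -0.42 to 1.18 for Cdh20, -0.11 to 0.22 for Pcdh8 and -0.41 to 0.13 for Pcdh17. Counting all 55 members, 23 turned with some array left out. Whether the replicate numbers pair the arrays could not be settled. Same-numbered arrays correlated in their deviations at 0.23, 0.03 and 0.22, and arrays with different numbers at -0.29 to 0.12. Replicates 1 and 3 correlated best with their own number, while control array 2 correlated best with swap array 3. A replicate block called 0 members, with a smallest adjusted p of 0.940, and left 2 with an unadjusted p under 0.05. Below the median level 2 of 32 members had an interval within 2-fold, and for the other 30 the interval reached past a 2-fold difference.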
